A study of Mus musculus with 6 samples.

Results

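The syndecans are 4 genes, Sdc1 to Sdc4, that were chosen by name from the 36083 genes of the deposited table, in which each has a row. RNA-seq was done on lineage-negative (Lin-) cells of a mouse model of blast crisis chronic myeloid leukemia (bcCML), sorted from the spleen, in 3 libraries labelled WT and 3 labelled Sdc1-/-. In both groups, stem and progenitor (KLS) cells of B6 donors carried 2 retroviral oncogenes, BCR-ABL and NUP98-HOXA9, were sorted for both and were grown in NSG recipients, which the labels give as the recipient strain (the general methods name CD45.1 recipients for primary transplants), and the mice of both cohorts were killed together. The groups differ by label in the donor, WT or Sdc1-/-, an allele that disrupts the signal peptide sequence, so that mature syndecan-1 does not reach the cell surface. The labels do not say whether the libraries of a group came from separate mice, so the p-values measure the spread between these libraries, which may be technical, and a legend of the supplement calls the WT libraries technical replicates. The methods and the reporting summary give different age ranges, in weeks, for all mice, and an age per library is not given in the sources used here.

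Syndecans are transmembrane proteoglycans. Their extracellular part carries heparan sulfate, and in some members chondroitin sulfate, chains that bind growth factors, chemokines and matrix proteins, and their short cytoplasmic tail ends in a motif that binds PDZ domain proteins. Enzymes can cut the extracellular part off the cell, a step called shedding. Sdc1 is best known from epithelia and plasma cells, Sdc2 from mesenchymal cells, Sdc3 from the nervous system, and Sdc4 from focal adhesions of many cell types.

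The 4 coding sequences end in the part that the family shares most, and these ends are shown because they bear on whether reads of one syndecan can be counted for another. Each line gives the last 120 coding bases with the stop codon, from GENCODE M21 on GRCm38, all within exon 5 of the longest coding transcript. Capitals mark the last 15 bases, which hold the PDZ-binding end and the stop codon, and any run of at least 20 bases that also stands in the end of another syndecan.
Sdc1 (chr12:8791688-8791807, plus strand): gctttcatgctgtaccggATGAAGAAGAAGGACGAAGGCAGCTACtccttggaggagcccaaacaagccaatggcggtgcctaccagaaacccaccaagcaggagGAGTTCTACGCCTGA
Sdc2 (chr15:33032421-33032540, plus strand): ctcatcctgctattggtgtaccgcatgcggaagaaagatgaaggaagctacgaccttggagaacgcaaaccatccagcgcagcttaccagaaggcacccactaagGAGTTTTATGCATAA
Sdc3 (chr4:130822690-130822809, plus strand): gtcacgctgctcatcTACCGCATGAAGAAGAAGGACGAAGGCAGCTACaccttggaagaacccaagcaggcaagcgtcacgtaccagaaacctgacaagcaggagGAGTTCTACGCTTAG
Sdc4 (chr2:164426086-164426205, minus strand): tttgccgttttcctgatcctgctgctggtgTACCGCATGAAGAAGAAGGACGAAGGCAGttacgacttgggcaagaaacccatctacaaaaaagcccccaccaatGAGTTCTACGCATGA
The longest run shared by any pair of these transcripts was 29 bases, between Sdc3 and Sdc4, followed by 27 bases between Sdc1 and Sdc3 and 23 between Sdc1 and Sdc4, while Sdc2 shared at most 14 bases with another member. Of all words of 31 bases in the annotated transcripts, 0 were shared between members (3831 words in Sdc1, 3497 in Sdc2, 5956 in Sdc3 and 2517 in Sdc4). Words shared with genes outside the family were 2.77% of those of Sdc1, 3.23% of those of Sdc2, 6.30% of those of Sdc3 and 0.755% of those of Sdc4. For Sdc1 they lay in Gm14724 and Gm16407, which are listed at 0 in all 6 libraries. For Sdc2 they lay in Gm32618, and for Sdc4 19 words recurred among 96 other genes. For Sdc3 they lay in Gm12970 and Gm26716. Words were searched on either strand, and whether the quantification used strand is not given in the sources used here.

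Sdc1, the targeted gene, is on the plus strand of chromosome 12 (chr12:8771323-8793715, GRCm38) and has 5 annotated transcripts, 3 of them protein-coding. The primers of the study show which part of the gene its genotyping and its RNA assay read. The genotyping forward primer lies in exon 1 of Sdc1-201, the longest transcript, before the start codon at 8771636. The genotyping reverse primer lies after the end of that exon at 8771701, and the pair spans 288 bases of GRCm38 that hold the start codon. The wildtype band is stated to be shorter than that span, and the difference was not resolved here. Both quantitative PCR primers lie in exon 3. All are printed in lower case, 5′ to 3′.
Sdc1 genotyping forward (chr12:8771478-8771497, plus strand): cggcgaaacctacagccctc
Sdc1 genotyping reverse (chr12:8771746-8771765, minus strand): gcatcggcgagtggcgagtc
Sdc1 quantitative PCR forward (chr12:8790400-8790420, plus strand): ctttgtcacggcagacacctt
Sdc1 quantitative PCR reverse (chr12:8790488-8790509, minus strand): gacagaggtaaaagcagtctcg
Transcripts Sdc1-203 and Sdc1-204 are annotated to start after exon 1 of Sdc1-201, at 8771803 and 8771742. The deposited value is a sum over a gene, so it does not show which transcripts or exons of Sdc1 were read.

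The promoters are shown as reference sequence, and their part in the levels of the syndecans was not tested. They are from RefSeq on GRCm38.p6, which held Sdc1, Sdc3 and Sdc4, and not Sdc2, and run from 250 bases before the RefSeq start up to that start, or up to the GENCODE start of the longest coding transcript where that comes earlier. Capitals mark GGGCGG on either strand (a GC box) and TATAA on either strand.
Sdc1 (chr12:8771146-8771322, plus strand): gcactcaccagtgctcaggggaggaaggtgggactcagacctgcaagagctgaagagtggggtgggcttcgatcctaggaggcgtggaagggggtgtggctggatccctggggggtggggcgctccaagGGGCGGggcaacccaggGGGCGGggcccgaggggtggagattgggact
Sdc3 (chr4:130792287-130792536, plus strand): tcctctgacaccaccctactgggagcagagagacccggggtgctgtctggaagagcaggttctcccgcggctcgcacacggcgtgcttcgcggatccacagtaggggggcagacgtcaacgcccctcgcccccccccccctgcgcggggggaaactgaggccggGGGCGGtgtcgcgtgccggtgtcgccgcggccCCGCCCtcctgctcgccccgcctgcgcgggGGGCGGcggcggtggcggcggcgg
Sdc4 (chr2:164443189-164443438, minus strand): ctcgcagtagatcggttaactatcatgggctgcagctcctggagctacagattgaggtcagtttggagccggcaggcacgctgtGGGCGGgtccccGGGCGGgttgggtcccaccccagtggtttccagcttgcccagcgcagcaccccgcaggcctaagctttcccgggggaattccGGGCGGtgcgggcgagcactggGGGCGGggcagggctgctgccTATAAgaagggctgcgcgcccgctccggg
GGGCGG stood 2 times before Sdc1, 3 times before Sdc3 and 4 times before Sdc4, and 35.7% of the 32851 promoters of the table, each 300 bases long, hold it. TATAA stood 1 time before Sdc4 and 0 times before Sdc1 and Sdc3, against 24.9% of all promoters. Over the full 300 bases, which run past the start, GGGCGG stood 3, 3 and 4 times and TATAA 2, 0 and 1 times in Sdc1, Sdc3 and Sdc4. CCAAT stood 1 time before Sdc1 and CACGTG before none of the 3. The windows shown were 68.4% G or C for Sdc1, 76.4% for Sdc3 and 68.0% for Sdc4.

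Values are abundances on a scale like TPM, a share of all transcripts in a library, which the authors rescaled between libraries, so they are corrected for transcript length and can be set beside each other between genes. Sums over all genes ran from 944973 to 1058263, with all 3 Sdc1-/- labelled sums below all 3 WT-labelled sums. Differences are given on the log2(value + 1) scale, which understates the change of genes with low values. They were tested with limma over all genes with a mean of at least 1, or with no minimum for members below it, and Benjamini-Hochberg adjusted p-values under 0.05 were called. Of 12155 genes with a mean of at least 1, 3564 were called higher and 3810 lower in the Sdc1-/- labelled libraries, and with all libraries scaled to a sum of 1000000 the counts were 5286 and 2380. That scaling moved the median log2 fold change of all tested genes by 0.13, from -0.0097 to 0.12.

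The cells carried the markers of a myeloid progenitor leukemia. All 8 progenitor genes looked up, Kit, Cd34, Myb, Msi2, Hoxa9, Ptprc, Cd33 and Mpo, were measured, with a summed value of 638 to 658 in the WT-labelled libraries and 558 to 566 in the Sdc1-/- labelled ones. Kit, Myb, Msi2 and Hoxa9 were called higher in the Sdc1-/- labelled libraries and Cd34, Ptprc, Cd33 and Mpo lower, so the sum does not speak for each gene. The cells also carried NUP98-HOXA9, and whether its reads were counted for Hoxa9 was not tested. Mpo, the granule enzyme myeloperoxidase, was the largest part of the sum, at 312 to 334 and 242 to 250. Cd33, a myeloid surface receptor, went from 46.5 to 48.5 in the WT-labelled libraries down to 11.5 to 14.1 in the Sdc1-/- labelled ones. Expression from the Y chromosome split the groups: the summed value of Ddx3y, Eif2s3y, Kdm5d and Uty was 0.276 to 0.308 in the WT-labelled libraries and 68.1 to 78.4 in the Sdc1-/- labelled ones. Donor sex and donor genotype can therefore not be told apart in any result here. In bulk RNA, fewer cells of a type and less RNA per cell cannot be told apart either.

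Sdc1 was the most abundant syndecan, and its mRNA was higher, not lower, in the Sdc1-/- labelled libraries. Its value was 1.75, 1.21 and 1.51 in WT replicates 1 to 3 and 3.85, 3.80 and 4.12 in Sdc1-/- replicates 1 to 3. The lowest library labelled Sdc1-/- stood above the highest labelled WT, and the means differed 2.63-fold. On the log2 scale the difference was 0.99, with a standard error of 0.093, a 95% interval of 0.77 to 1.21 and a limma adjusted p of 1.2e-04. Among all genes tested, 60.7% were called in either direction and 29.3% were called higher, 66.7% had groups that did not overlap, and 32.6% had all 3 Sdc1-/- labelled values above the others. The paper reports that the deletion was checked by PCR of genomic DNA and by immunofluorescence staining. Why the mRNA was higher under the Sdc1-/- label was not tested, and groups are called by their labels throughout. The allele is described by its effect on the protein, and one value per gene cannot tell which RNA came from it.

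Sdc2, on chromosome 15 with 1 annotated transcript, was the member with no detectable difference. Its value was 0.555, 0.587 and 0.565 in the WT-labelled libraries. In the Sdc1-/- labelled ones it was 0.435, 0.616 and 0.692, on both sides of every WT library. The Sdc1-/- labelled libraries spread more (SD 0.132) than the WT-labelled ones (SD 0.0164). On the log2 scale the difference was 0.0072, with a standard error of 0.068 and a limma adjusted p of 0.96, fitted with no minimum mean. Its 95% interval, from -0.16 to 0.18 on the log2(value + 1) scale, gives the size of difference that these libraries leave possible.

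Sdc3, on chromosome 4, was lower where Sdc1 mRNA was higher, in the Sdc1-/- labelled libraries. Its value was 0.431, 0.460 and 0.382 in WT replicates 1 to 3 and 0.144, 0.213 and 0.273 in Sdc1-/- replicates 1 to 3. The groups did not overlap, and the mean labelled WT was 2.02-fold the mean labelled Sdc1-/-. On the log2 scale the difference was -0.24, with a standard error of 0.047, a 95% interval of -0.35 to -0.12 and a limma adjusted p of 0.013, fitted with no minimum mean. Of 4623 genes with a mean of 0.1 to 1, the range that holds Sdc2, Sdc3 and Sdc4, 23.5% were called in that fit and 11.5% were called lower (32.5% were called over all 24714 genes of the fit). The call was lost without either of 2 libraries: without WT replicate 1 the adjusted p from limma was 0.052 with a log2 fold change of -0.23, and without Sdc1-/- replicate 2 the same p was 0.052 with -0.24.

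Sdc4, on the minus strand of chromosome 2, was the least abundant member, and its lower values in the Sdc1-/- labelled libraries did not pass the test. Its value was 0.197, 0.380 and 0.185 in WT replicates 1 to 3 and 0.0955, 0.10 and 0.0389 in Sdc1-/- replicates 1 to 3. No library labelled Sdc1-/- reached the lowest labelled WT, and WT replicate 2 stood at about the level of Sdc3 in its group. On the log2 scale it differed by -0.21, with a standard error of 0.066, a 95% interval of -0.38 to -0.05 and a limma adjusted p of 0.058, fitted with no minimum mean. Groups that did not overlap, with the Sdc1-/- labelled libraries lower, were found in 17.3% of genes with a mean of 0.1 to 1. Without WT replicate 2 the log2 fold change was -0.14 and the adjusted p from limma was 0.035, and with a pseudocount of 0.1 they were -0.97 and 0.041.

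**Figure D1:**
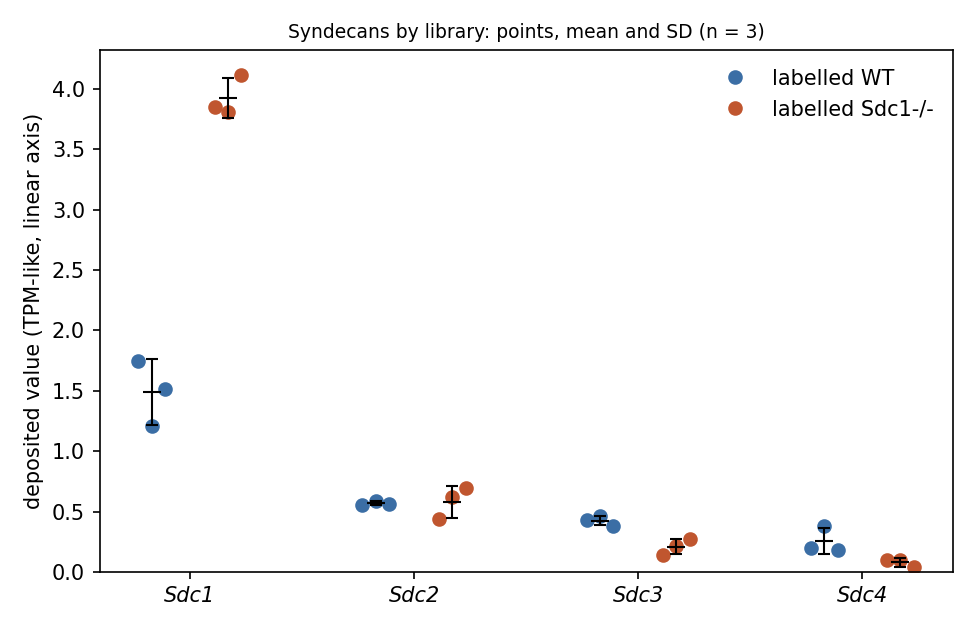
The deposited value of each syndecan on a linear axis, with 1 point per library, the mean as a bar and the SD as whiskers (n = 3 per group). The Sdc1-/- labelled libraries stand above the WT-labelled ones for Sdc1, overlap them for Sdc2 and stand below them for Sdc3 and Sdc4.

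An exact permutation test of each member alone, two-sided, gave p = 0.1 for Sdc1, Sdc3 and Sdc4, the smallest that 3 against 3 libraries allow, and p = 1 for Sdc2. Under the alternatives in the plot of settings, Sdc1 kept its direction and its call, with log2 fold changes of 0.90 to 1.35 over 13 alternatives. Sdc3 and Sdc4 kept their direction over 12 alternatives each, with ranges of -0.78 to -0.20 and -0.97 to -0.14.

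**Figure D2:**
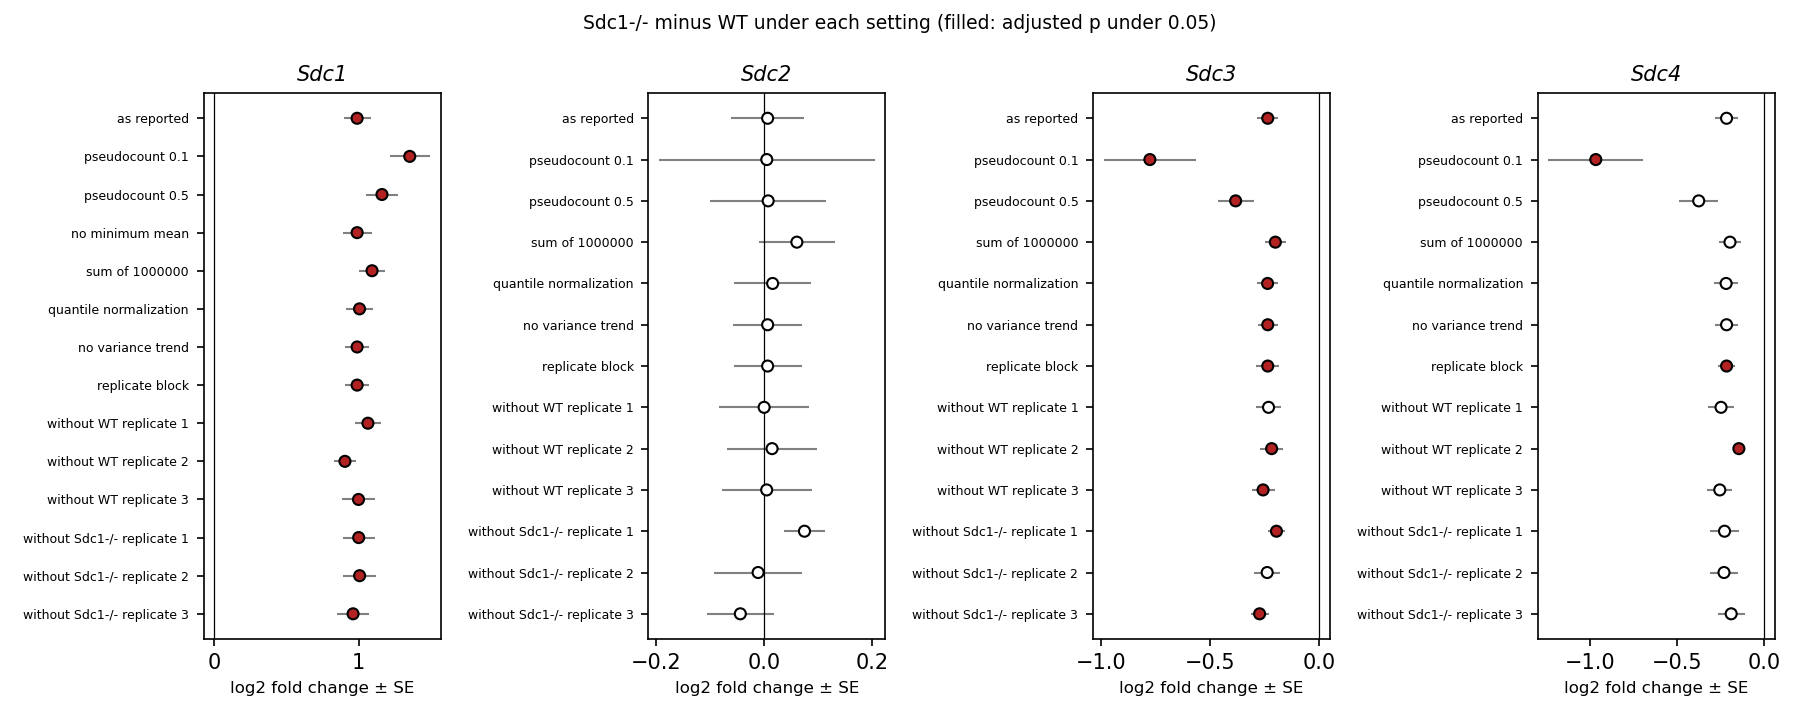
The log2 fold change of each syndecan with its standard error, as reported and under each alternative setting, with filled points at an adjusted p under 0.05. All points of Sdc1 are filled and none of Sdc2, while Sdc3 loses the call in 2 settings that leave out a library and Sdc4 gains it in 3 settings.

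The order of levels, Sdc1, Sdc2, Sdc3, Sdc4, was the same in both groups by their means. Within WT, each library of Sdc1 exceeded every library of Sdc2, and each of Sdc2 exceeded every one of Sdc3. Sdc3 and Sdc4 were next to each other: the lowest Sdc3 value, 0.382, and the highest Sdc4 value, 0.380, differed by less than the spread of either. Within the Sdc1-/- labelled libraries, the 4 members did not overlap. The family was low in both groups, in a table where 11369 genes are at 0 in all 6 libraries. Averaged over libraries, Sdc1 was at percentile 68.3 of all 36083 genes in the WT-labelled libraries and 73.7 in the Sdc1-/- labelled ones. Sdc2 was at 63.7 and 63.8, Sdc3 at 62.2 and 58.1, and Sdc4 at 59.1 and 52.4.

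The sum of the 4 members was 2.93, 2.63 and 2.64 in the WT-labelled libraries and 4.52, 4.73 and 5.12 in the Sdc1-/- labelled ones. The larger sum came from Sdc1: Sdc2, Sdc3 and Sdc4 together summed to 1.25 ± 0.157 (SD, n = 3) in the WT-labelled libraries and 0.869 ± 0.173 (SD, n = 3) in the Sdc1-/- labelled ones. Sdc1 made up 59.7%, 45.8% and 57.2% of the sum in the WT-labelled libraries and 85.1%, 80.4% and 80.4% in the Sdc1-/- labelled ones. Sdc3 made up 15.5% ± 1.67 and 4.34% ± 1.09, and Sdc4 9.38% ± 4.38 and 1.66% ± 0.782 (SD, n = 3 in each group). These shares are set by Sdc1 as well as by the member itself.

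**Figure D3:**
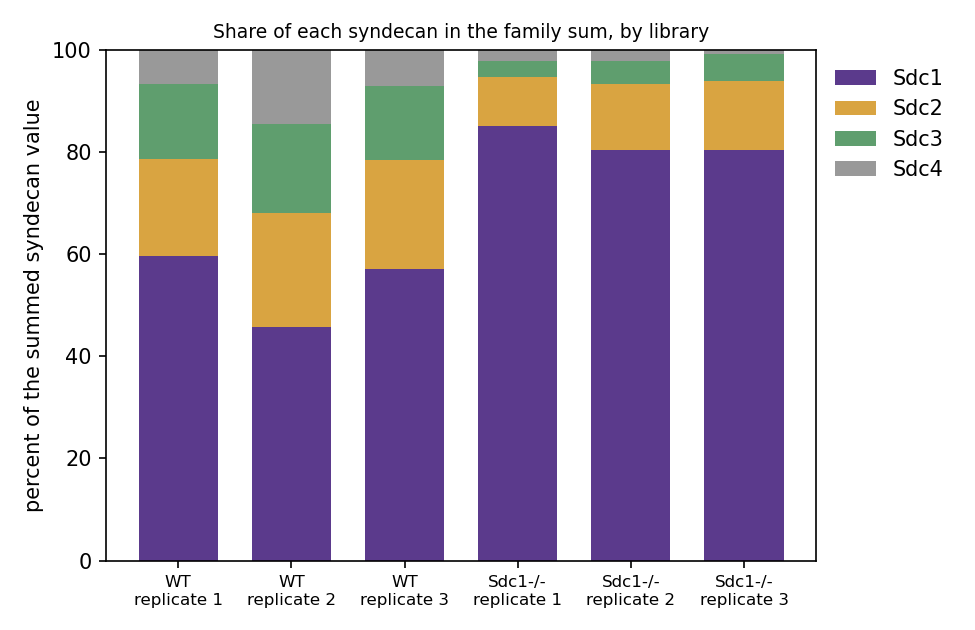
The share of each syndecan, in percent, of the summed syndecan value in each of the 6 libraries. Sdc1 takes 45.8% to 59.7% of the sum in the WT-labelled libraries and 80.4% to 85.1% in the Sdc1-/- labelled ones.

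The depth behind these low values can be read from genes with 1 annotated transcript. Each value was multiplied by the number of positions where a fragment can start on the transcript. The products lay near whole multiples of a constant more often than an even spread gives. That constant was fitted per library to give the largest share near whole multiples, which the figure for an even spread does not allow for. Of values worth up to 15 reads in protein-coding genes of this kind, 75.9% to 79.3% per library lay within 0.05 of a whole read, and 58.5% to 61.3% did so in all genes with 1 transcript, where an even spread gives 10%. The read numbers that follow are therefore estimates. On that scale 1 read on a transcript of 1000 bases was worth 0.0188 (Sdc1-/- replicate 2) to 0.0291 (Sdc1-/- replicate 3), so depth differed within a group. This reading was chosen after the data were seen and takes a fragment length of 200 bases. For Sdc2 it gives about 106, 86 and 99 reads in the WT-labelled libraries and 76, 137 and 99 in the Sdc1-/- labelled ones. If all Sdc1 reads came from Sdc1-201, they were about 296, 156 and 235 in the WT-labelled libraries and 596, 749 and 522 in the Sdc1-/- labelled ones. If all Sdc3 reads came from its longest transcript, they were about 118, 96 and 96, and 36, 68 and 56.

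Sdc4 rests on few reads. On its coding transcript of 2458 bases the estimate is 25, 38 and 22 reads in the WT-labelled libraries and 11, 15 and 4 in the Sdc1-/- labelled ones, with an exact Poisson 95% interval of 1.09 to 10.2 for the lowest and 26.9 to 52.2 for the highest. On its second annotated transcript, a processed transcript of 797 bases, the estimate is 7, 10 and 6 and then 3, 4 and 1 reads. Which transcript was read is not shown by the deposited values, and the intervals cover counting error only.

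Among the 12155 genes tested, the 3 with the profile nearest to that of Sdc1 over the 6 libraries were Cdk10, a cyclin-dependent kinase, Leng8, and Jak3, the kinase of common gamma chain cytokine receptors. Likeness was measured as the Euclidean distance between mean-centred log2(value + 1) profiles, which was 0.119, 0.119 and 0.144. Cdk10 had a value of 8.78 ± 0.789 in the WT-labelled libraries and 18.9 ± 0.0935 in the Sdc1-/- labelled ones (SD of 3 libraries each). Leng8 had 8.92 ± 0.913 and 19.8 ± 0.403, and Jak3 had 4.03 ± 0.523 and 8.80 ± 0.535 (SD, n = 3 in each group).

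The nearest tested genes on the chromosomes did not all move with their syndecan. Of all genes tested, 60.7% were called in either direction. Next to Sdc1, Pum2, an RNA-binding repressor of translation 18.7 kb away, was lower in the Sdc1-/- labelled libraries (log2 fold change -0.34, adjusted p = 0.0014 from limma). Laptm4a, 128 kb away on the other side, was higher (0.13, adjusted p = 0.010 from limma). On the side of lower coordinates, the tested gene nearest to Sdc2 was Fam173b, 1299.5 kb away, which was higher (0.15, adjusted p = 0.012 from limma). On the other side of Sdc2, Cpq, a carboxypeptidase 48.2 kb away, was not called (0.13, adjusted p = 0.32 from limma). Next to Sdc3, Laptm5, a lysosomal protein of blood cells 86.8 kb away, was lower (-0.51, adjusted p = 2.7e-05 from limma). Next to Sdc4, Slpi, a secreted inhibitor of leukocyte proteases 35.2 kb away, fell by 1.37 on the log2 scale (adjusted p = 7.8e-06 from limma). Sys1, 13.1 kb away on the other side, fell by 0.54 (adjusted p = 3.1e-05 from limma).

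The glypicans, the other family of heparan sulfate proteoglycans on cell surfaces, which hold to the membrane by a lipid anchor, were low as well. All 6 had a mean below 1, and their sum was 2.85 ± 0.0577 in the WT-labelled libraries and 2.46 ± 0.110 in the Sdc1-/- labelled ones (SD of 3 libraries each). The syndecans summed to 2.74 ± 0.170 and 4.79 ± 0.304, so the families were alike in the WT-labelled libraries only. Gpc1 was 1.14, 1.07 and 1.25 in the WT-labelled libraries and 0.282, 0.297 and 0.292 in the Sdc1-/- labelled ones (log2 fold change -0.74, adjusted p = 2.2e-04 from limma with no minimum mean). Gpc2 went the other way, from 0.366, 0.211 and 0.371 to 1.66, 1.60 and 1.43 (0.96, adjusted p = 4.1e-04 in the same fit). Gpc5 was 1.15, 1.37 and 1.19 in the WT-labelled libraries and 0.448, 0.625 and 0.585 in the Sdc1-/- labelled ones (-0.53, adjusted p = 0.0030). Gpc3 (-0.10, adjusted p = 0.047) was called lower from values of at most 0.135, and Gpc4 and Gpc6 were not called. Over all 24714 genes of the fit with no minimum mean, 32.5% were called in either direction, and 23.5% of those with a mean of 0.1 to 1.

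**Figure D4:**
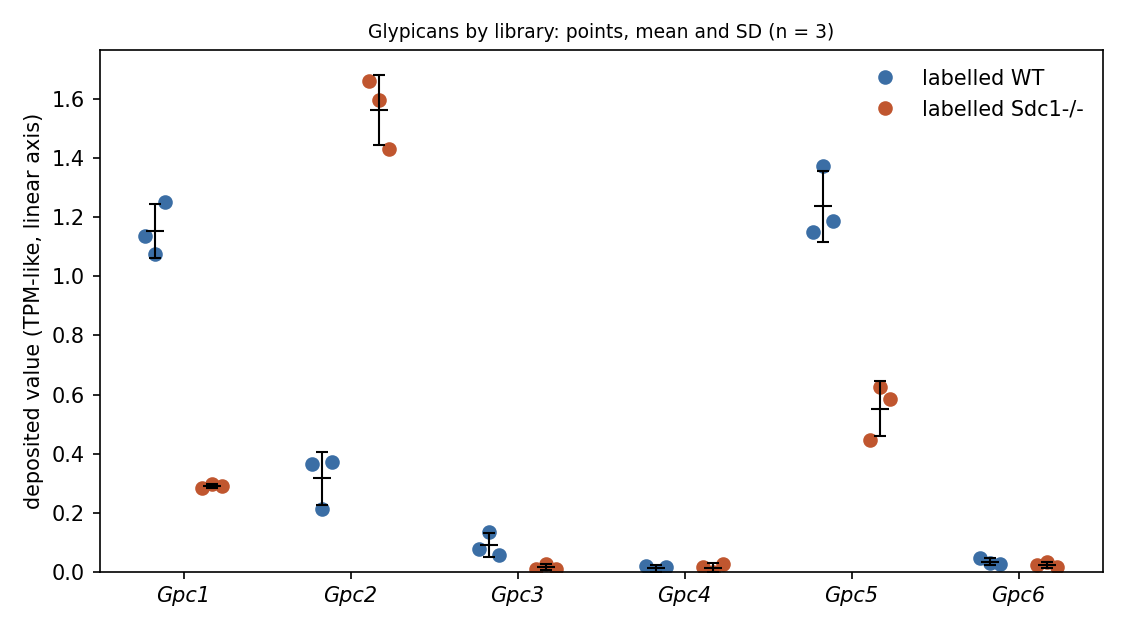
The deposited value of each glypican on a linear axis, with 1 point per library, the mean as a bar and the SD as whiskers (n = 3 per group). Gpc1 and Gpc5 stand lower and Gpc2 higher in the Sdc1-/- labelled libraries, and the other glypicans lie at 0.135 or lower in all 6 libraries.

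Genes listed as cytoplasmic partners of syndecans were mostly abundant, and more of them were called lower than higher in the Sdc1-/- labelled libraries. Of 19 such genes, 17 were tested, 10 were called lower and 2 higher, at a list median of -0.24 against -0.0097 over all genes tested, of which 31.3% were called lower. With all libraries scaled to a sum of 1000000, 7 were lower and 4 higher. Sdcbp, which encodes syntenin-1, the PDZ protein that binds the end of all syndecans, had a value of 181 ± 5.53 in the WT-labelled libraries and 142 ± 4.25 in the Sdc1-/- labelled ones (SD, n = 3, log2 fold change -0.35, adjusted p = 1.8e-04 from limma). Actn4, an actin crosslinking protein of the family that binds the Sdc4 tail, went from 156 ± 1.91 to 127 ± 1.76 (-0.30, adjusted p = 1.0e-04 from limma). Gipc1, a PDZ protein that binds Sdc4, had the largest fall of the called members (-0.37, adjusted p = 9.7e-04 from limma). Ezr, which links membrane proteins to actin, was 82.3 ± 0.674 and 81.9 ± 1.64 and was not called (-0.0083). Fyn, a Src family kinase, had the largest rise, from 18.7, 17.2 and 21.8 to 28.4, 29.5 and 30.5 (0.60, adjusted p = 7.0e-04 from limma).

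Among the enzymes that release syndecans from the cell and their inhibitors, the sheddases differed from each other. Of 19 genes, 13 were tested, 8 were called lower and 2 higher, against 31.3% lower and 29.3% higher over all genes tested, at a list median of -0.22, and with all libraries scaled to a sum of 1000000 the counts were 6 and 2. Mmp9, a secreted gelatinase that sheds Sdc1 and Sdc4, had the largest fall, from 11.8, 12.9 and 11.6 in the WT-labelled libraries to 1.93, 2.43 and 3.11 in the Sdc1-/- labelled ones (-1.92, standard error 0.12, adjusted p = 1.9e-05 from limma). Mmp14, a membrane-bound sheddase of Sdc1, had the largest rise, from 26.8 ± 1.51 to 31.6 ± 1.12 (SD, n = 3, 0.23, adjusted p = 0.0065 from limma). Adam10, a membrane sheddase, was 59.4 ± 2.75 and 58.5 ± 3.72 and was not called. Psenen and Aph1a, subunits of the gamma-secretase that cuts the membrane stub left after shedding, were the most abundant genes of the list and both were lower (-0.23, adjusted p = 8.0e-04, and -0.22, adjusted p = 5.8e-04, from limma).

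The enzymes that build or modify the heparan and chondroitin sulfate chains moved in both directions. Of 24 genes, 21 were tested, 8 were called lower, 2 higher and 11 not called, against 31.3% lower and 29.3% higher over all genes tested, at a list median of -0.18. With all libraries scaled to a sum of 1000000, 3 were lower and 4 higher, and with quantile normalization 10 were lower and 2 higher. The balance of this list thus turned under the first scaling and not under the second. Csgalnact2, which starts chondroitin sulfate chains, was the most abundant, at 46.7 ± 1.85 and 39.8 ± 2.69 (SD, n = 3, -0.23, adjusted p = 0.010 from limma). Ext2, a subunit of the heparan sulfate polymerase, was 40.6 ± 1.55 and 34.0 ± 0.999 (-0.25, adjusted p = 0.0017 from limma), and B3gat3, which completes the linker to the core protein, was 21.3 ± 1.32 and 19.7 ± 0.847 and was not called. Ndst1, which begins the sulfation of heparan sulfate, had the largest fall, from 11.0 ± 0.108 to 7.80 ± 0.458 (-0.45, adjusted p = 3.0e-04 from limma). B4galt7, which adds the galactose next to the xylose of the linker, had the largest rise, from 10.5 ± 0.592 to 13.7 ± 0.630 (0.36, adjusted p = 0.0013 from limma).

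The other proteoglycan core proteins of these cells were led by Srgn, serglycin, the proteoglycan of myeloid granules. Its value was 2048, 2094 and 2124 in the WT-labelled libraries and 1300, 1346 and 1348 in the Sdc1-/- labelled ones, the largest fall among the genes of the list with a mean of at least 1 (-0.65, standard error 0.031, adjusted p = 6.2e-06 from limma). Only 4 of the 14 genes, the glypicans included, had a mean of at least 1, and 3 of them were called lower, against 31.3% of all genes tested, and 0 higher (2 lower with all libraries scaled to a sum of 1000000). Cd44, which can carry chains as a splice form, was 37.7 ± 1.37 and 34.0 ± 0.733 (-0.14, adjusted p = 0.016 from limma), and Col18a1 was 25.0 ± 0.745 and 22.7 ± 1.82 and was not called. With no minimum mean, 7 of the 14 were called lower and 2 higher, where 32.5% of all 24714 genes of that fit were called in either direction.

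Receptors that act with syndecans were lower for the most part. Of 14 genes, 12 were tested, 8 were called lower and 2 higher, against 31.3% lower and 29.3% higher over all genes tested, at a list median of -0.35, and with all libraries scaled to a sum of 1000000 the counts were 6 and 3. Itgb7, integrin β7, was 109, 99.3 and 95.5 in the WT-labelled libraries and 62.9, 61.4 and 58.8 in the Sdc1-/- labelled ones (-0.72, standard error 0.054, adjusted p = 4.2e-05 from limma). Itga4, integrin α4, its partner chain, was 33.3 ± 1.27 and 35.4 ± 2.35 and was not called (0.08, adjusted p = 0.23 from limma). Itgb1 was 117 ± 2.45 and 109 ± 2.87 (-0.11, adjusted p = 0.028 from limma), and Cxcr4, the receptor of Cxcl12, was 117 ± 2.48 and 88.3 ± 2.91 (-0.41, adjusted p = 8.2e-05 from limma). These are mRNA values, and the paper reports that Cxcr4 protein on Sdc1-/- leukemia cells was not reduced. Fgfr1, a fibroblast growth factor receptor that uses heparan sulfate, had the largest fall, from 7.83, 7.03 and 7.04 to 3.19, 2.89 and 3.13 (-1.03, adjusted p = 1.7e-05 from limma). Itga5, the chain of the fibronectin receptor, had the largest rise, from 14.3 ± 0.610 to 21.3 ± 0.505 (0.55, adjusted p = 5.8e-05 from limma).

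Ligands of the chains and core proteins split by gene. Of 13, 7 were tested and all 7 were called, 4 higher and 3 lower, where 60.7% of all genes tested were called, at a list median of 0.39, and the counts were the same with all libraries scaled to a sum of 1000000. Lama5, a laminin chain, had the largest rise, from 6.79, 9.72 and 8.66 to 19.5, 20.2 and 18.9 (1.14, standard error 0.11, adjusted p = 1.4e-04 from limma). Fn1, fibronectin, was 12.9 ± 0.522 and 17.2 ± 1.30 (0.39, adjusted p = 0.0013 from limma), and Vegfa was 10.6 ± 1.39 and 16.0 ± 0.488 (0.56, adjusted p = 0.0011 from limma). Thbs1, thrombospondin-1, had the largest fall, from 6.77, 6.90 and 6.91 to 2.31, 2.16 and 2.16 (-1.29, adjusted p = 3.3e-06 from limma).

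**Figure D5:**
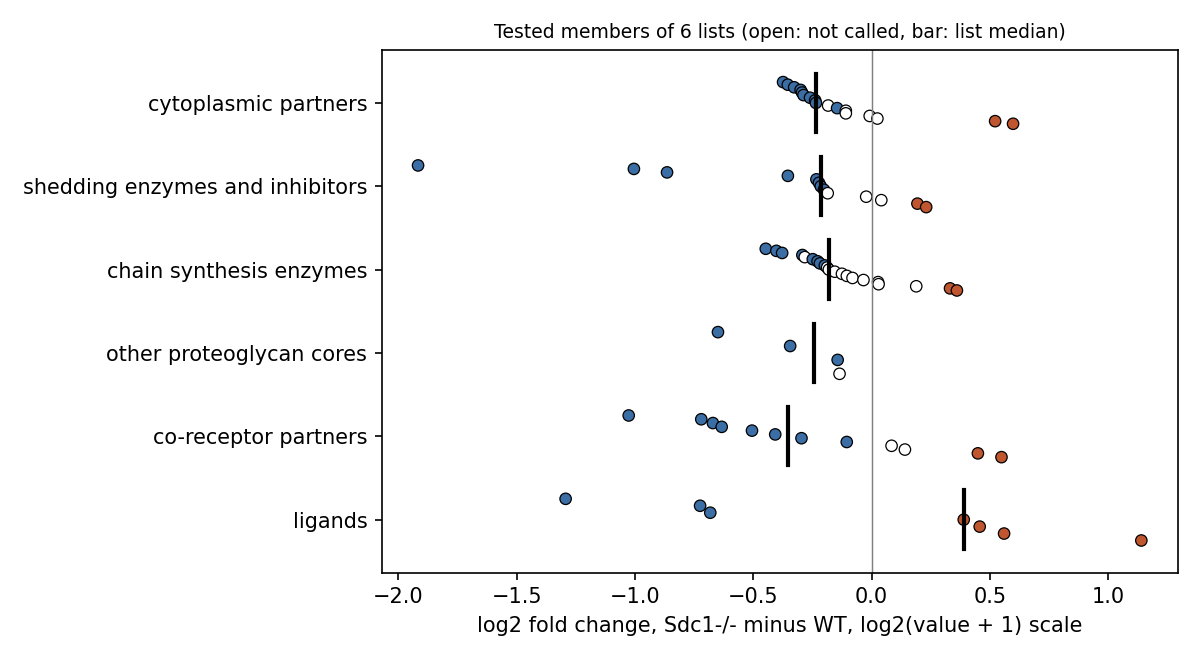
The log2 fold change, on the log2(value + 1) scale, of each tested gene in 6 lists of genes that work with syndecans, with open points for genes not called, filled points for called genes and a bar at the list median. The list medians run from -0.35 (co-receptor partners) to 0.39 (ligands), and Mmp9 is the point farthest to the left at -1.92.

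Markers of cell types known for syndecans were looked up beside these results. For plasma cells, the blood cells known for Sdc1, 8 of 9 markers had a mean below 1 and Tnfrsf17 was listed at 0 in 5 of 6 libraries, while Xbp1, which many cell types express, was 167 to 171 and 137 to 143 and made up most of the summed value (168 to 172 in the WT-labelled libraries and 138 to 145 in the Sdc1-/- labelled ones). Jchain, the joining chain of secreted antibodies, was 0.0761 to 0.133 in the WT-labelled libraries and 0.332 to 0.367 in the Sdc1-/- labelled ones, and was called higher (adjusted p = 7.5e-04 from limma with no minimum mean). Xbp1 was called lower (-0.27, adjusted p = 2.5e-04 from limma), as was Irf4, a transcription factor of plasma cells (adjusted p = 0.049 from limma with no minimum mean). Slamf7 was 0.148 to 0.288 in the WT-labelled libraries and 0.0843 to 0.114 in the Sdc1-/- labelled ones and was not called. Mzb1 went the other way, from 0.0247 to 0.0808 in the WT-labelled libraries up to 0.0848 to 0.189, and was not called either. The markers thus gave no common direction, and their part in the level of Sdc1 was not tested. For B cells, the summed value of 5 markers was 2.11 to 2.77 and 1.96 to 2.58, nearly all of it Cd79b, and 0 were called. Only 1 of the 5 had a mean of at least 1, where 60.7% of all genes tested were called.

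Macrophage markers were mostly lower in the Sdc1-/- labelled libraries. Of 8 markers, 7 were tested, 6 were called lower and 0 higher, against 31.3% lower and 29.3% higher over all genes tested. The summed value of the 8 markers was 60.7 to 66.0 in the WT-labelled libraries and 25.4 to 27.7 in the Sdc1-/- labelled ones. Cd68 fell by 1.43 and Adgre1, the F4/80 antigen, by 1.06 on the log2 scale (adjusted p = 3.4e-06 and 1.1e-05 from limma), while Vcam1 was not called (-0.02). Their part in the levels of Sdc3 and Sdc4, and in the gene lists above, was not tested.

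Epithelial markers, looked up because Sdc1 is abundant in epithelia, gave no common direction. Krt19 was listed at 0 in all 6 libraries and Krt8 was at most 0.0255. Epcam (0.80) and Krt18 (0.93) were called higher and Cdh1 (-1.43) was called lower in the Sdc1-/- labelled libraries, and the summed value of the 5 markers was 9.96 to 10.2 and 8.22 to 8.95. Of 11 stromal and endothelial markers, 3 were tested, 1 was called higher and 2 lower, against 29.3% higher and 31.3% lower over all genes tested. The summed value of the 11 markers was 40.5 to 42.6 and 40.6 to 40.8, and Lum was listed at 0 throughout. Their part in the levels of the syndecans was not tested.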

How the data were processed

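RNA-seq libraries were made from 150 ng of RNA with a stranded kit and read as single reads of 75 bases, per the labels. The submitters' processing notes name kallisto, with no version, sleuth 0.30.0 and the build mm10 (GRCm38). The deposited table holds a signal value per gene and library, a TPM-like abundance that the authors rescaled between libraries and summed over transcripts. Symbols were matched from GENCODE M21 for 35454 of 36083 gene IDs. A second deposited table, of the authors' own comparison (p-values, q-values, effect sizes and variances of genes under a false discovery rate), was not used.

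Tests used limma 3.58.1 in R 4.3.3 on log2(value + 1) with group as sole term, a trended variance and Benjamini-Hochberg adjustment over all genes with a mean of at least 1, or over the 24714 genes above 0 for members below that mean. This test fits normalized values, which are not counts. The fit with a minimum mean of 1 was tried on simulated data, and the fit with no minimum mean, used for Sdc2, Sdc3 and Sdc4, was not. Exact permutation tests, positions and sequences used Python 3.11.15, scipy 1.17.1 and pandas 2.3.3, and figures matplotlib 3.10.9. Genes named in each list were the 3 of highest mean and the called genes of largest rise and fall, with Sdc1 to Sdc4, Itgb7, Itga4, the glypicans, the nearest profiles and the nearest tested neighbours, of which 1 is not reported here. Markers and further genes named followed no such rule and were chosen after their values were seen. The members and lists were chosen with earlier results of these data known. Depth was read only from value steps, and intervals cover counting error only.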

Additional observations from a re-analysis of the deposited data

How the results depend on the processing

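Alternatives were a pseudocount of 0.1 or 0.5, no minimum mean, a minimum mean of 5, all libraries scaled to a sum of 1000000, quantile normalization, no variance trend, a replicate block, and leaving out each library in turn. A minimum mean of 5 leaves out all 4 members. Sdc1 kept its direction and call in the 13 other alternatives. Leaving out libraries gave Sdc1 0.90 to 1.06, Sdc2 -0.043 to 0.075 (the sign turned without Sdc1-/- replicate 2 or 3), Sdc3 -0.27 to -0.20 (adjusted p 0.014 to 0.052) and Sdc4 -0.25 to -0.14 (adjusted p 0.035 to 0.17). Sdc4 was called with a pseudocount of 0.1 (-0.97, adjusted p = 0.041 from limma) and with the replicate block (-0.21, adjusted p = 0.048 from limma), and the cause was not tested. With all libraries scaled to a sum of 1000000, the genes called lower were 2380 instead of 3810. Of 168 counts of called genes per list and alternative, 157 stayed within 1.5 times the reported count.

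Replicate numbers were shared between the groups, but same-numbered libraries deviated together weakly (correlations of 0.15, -0.0083 and 0.018), so the numbers were not taken as pairs. Not every library correlated best with its own number. Under the replicate block 3653 genes were called higher and 3971 lower, and no other member's call changed.

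Values near 0 limit Sdc4 most, at an estimated 4 reads in 1 library on its coding transcript.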
